A study of Mus musculus with 6 samples.

Results

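Chemokine ligands are small secreted proteins that draw leukocytes into tissue by binding G protein-coupled receptors on those cells. They are named by the spacing of their first cysteines as CC, CXC and CX3C ligands, and groups of them lie side by side in the genome. Adipocytes and their precursors can make several, and in obese fat the CC ligands that attract monocytes are known for their link to macrophage entry. Of 10 ligands named for this account (Ccl2, Ccl5, Ccl7, Ccl20, Cxcl1, Cxcl5, Cxcl10, Cxcl12, Cxcl16 and Cx3cl1), 9 were found by gene symbol among the 13283 genes of the table, and Ccl20, the ligand of Ccr6, was not analysed here. The members were chosen by gene name and selected on a value above 0 in each of the 6 libraries, which each gene of the table had. The list was drawn up with earlier results of these data known, so the size and direction of its members' differences are a description and no independent evidence.

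RNA-seq was performed in an immortalized line of mouse brown adipocytes (BAT cells) that stably express Cas9. The control libraries (Scr, labelled WT) came from cells that received a scrambled single guide RNA, and the MICT1 KO libraries from knockout pools, not clones, made with guides against MICT1, a microprotein of brown fat. The labels do not say which pool gave which library. Cells of both groups were differentiated into brown adipocytes and treated on day 6 with 10 µM forskolin, an activator of adenylyl cyclase, for 6 h, so no untreated cells are compared here. Each group held 3 libraries, and nothing in the labels says whether they came from separate cultures, so that the p-values speak for these libraries only. The fit (limma-trend) takes each gene's variance partly from other genes of like level, so a p-value can understate the spread of a more variable gene.

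The deposited values are a normalized signal per gene, read here as estimated reads divided by a size factor, with 15445900 to 17925600 estimated reads per library. Pearson correlations of log2 values across genes, which are not independent replicates, were 0.987 to 0.990 between libraries of a group and 0.929 to 0.940 between the groups. The ribosomal RNA gene Rn45s took 1.92% of the summed value in Scr library 2 and 0.507% to 0.831% in the other libraries. Without Scr library 2, 7 listed ligands were called higher and 0 lower by limma-trend, as with it. The labels could not be checked on the targeted gene, since MICT1 was not analysed here. The 8 brown adipocyte markers, among them Adipoq and Fabp4, were in the table and summed to 4294 to 5124 CPM (each value scaled to a common sum per library) in the Scr libraries, against 347 to 589 CPM in the MICT1 KO libraries. Ucp1, the uncoupling protein that defines brown adipocytes, was low in both groups, with mean values of 25.1 and 4.10.

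Of the 8 listed ligands that passed the filter on low values (at least 10 in at least 3 libraries), 7 were higher in MICT1 KO cells at an adjusted p under 0.05 by limma-trend, where 28.5% of the 12507 genes tested were called higher and 28.3% lower. None was called lower by limma-trend, and 1, Cx3cl1, was lower at an unadjusted p under 0.05. In either direction 56.9% of genes were called, so a call alone sets a gene little apart in this comparison. All 7 were at least 2-fold higher, as were 7.99% of the genes tested, and 4 of them (Cxcl10, Cxcl1, Ccl2 and Cxcl5) were at least 8-fold higher, as were 0.4%. The median log2 fold change of the 8 was 2.98, beside -0.01 over all genes tested. These are bulk libraries, in which more cells of a kind and more RNA per cell cannot be told apart.

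**Figure D1:**
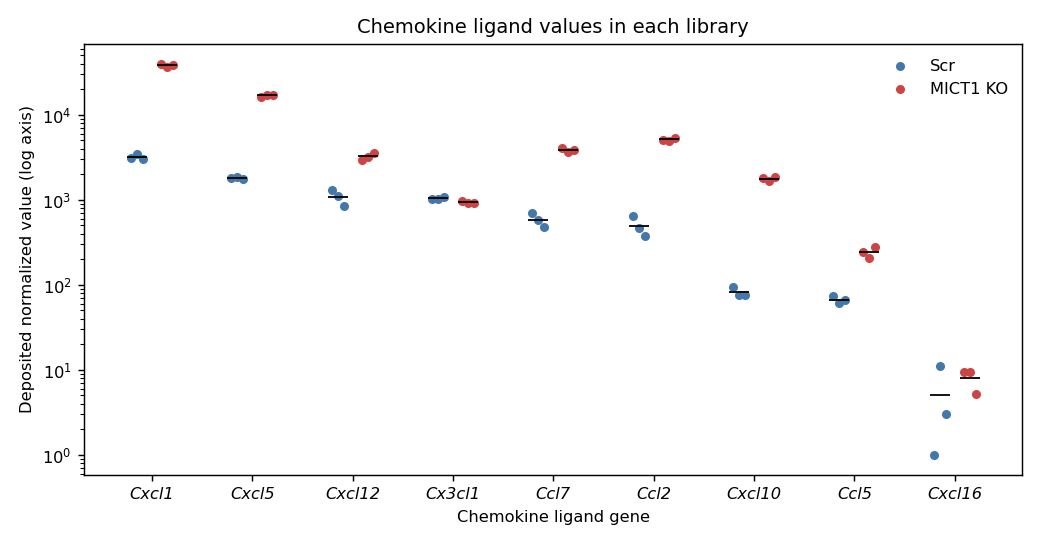
Deposited normalized values (log axis) of the 9 listed chemokine ligands in the table, in the 3 Scr (blue) and 3 MICT1 KO (red) libraries, with black lines for the group means. The groups stand apart for all but Cxcl16, and Cx3cl1 is the only ligand whose MICT1 KO libraries lie below the Scr libraries.

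The CXC ligands Cxcl1 and Cxcl5, which attract neutrophils through Cxcr2, had the highest values in both groups. The value of Cxcl1 was 3083, 3431 and 3023 in Scr libraries 1, 2 and 3, and 40104, 36998 and 38064 in MICT1 KO libraries 1, 2 and 3. Values are given in this order of libraries throughout. The lowest MICT1 KO library thus lay far above the highest Scr library, and the 3 libraries of each group lay close together. The fitted log2 fold change, taken on log2(value + 1) as are all those that follow, was 3.60 (SE 0.057, 95% interval 3.48 to 3.71), a 12.1-fold rise with an adjusted p of 3.69e-21 by limma-trend. Cxcl5 was at 1792, 1877 and 1772 in Scr libraries against 16426, 17271 and 17104 in MICT1 KO libraries. The groups again did not overlap, and the log2 fold change was 3.22 (SE 0.052, adjusted p = 4.27e-21 by limma-trend).

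The remaining Cxcr2 ligands in the table, which were not on the list of 10, moved the same way. Cxcl2, a close relative of Cxcl1, had values of 45.5, 54.7 and 38.7 in Scr libraries against 441, 429 and 510.0 in MICT1 KO libraries, which gave a log2 fold change of 3.30 (SE 0.17, adjusted p = 9.75e-13 by limma-trend). Cxcl3 was at 61.3, 52.8 and 96.7 in Scr libraries against 156, 225 and 258 in MICT1 KO libraries, which gave a log2 fold change of 1.61 (SE 0.23, adjusted p = 4.28e-06 by limma-trend). Scr and MICT1 KO libraries did not overlap for either gene. Ppbp, the precursor of a platelet chemokine, was low, at 4.95, 28.7 and 15.3 in Scr libraries against 51.5, 39.0 and 43.5 in MICT1 KO libraries. The rise of 1.67 on the log2 scale (SE 0.47, adjusted p = 0.00464 by limma-trend) rested partly on Scr library 1 and was 1.05 without it.

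These 5 genes lie in a row on mouse chromosome 5 (GRCm38), over 145 kb from the start of Cxcl5 (chr5:90759298-90761625) to that of Cxcl2 (chr5:90903899-90905938), with Ppbp, Cxcl3 and Cxcl1 between them. Pf4 and Cxcl15, which lie in the same interval, were not analysed here. The log2 fold changes along the row were 3.22, 1.67, 1.61, 3.60 and 3.30, so that Cxcl5 and the pair of Cxcl1 and Cxcl2 were higher by more than the genes between them, with 95% intervals that did not overlap theirs. Genes within 400 kb of the cluster were looked at after these values were seen. Ereg and Areg, which encode ligands of the EGF receptor, lie beyond Cxcl2 and were also higher in MICT1 KO cells, with log2 fold changes of 1.97 (adjusted p = 7.23e-17 by limma-trend) and 1.95 (adjusted p = 4.98e-12 by limma-trend). Mthfd2l, a folate enzyme gene that lies between Cxcl2 and Ereg, had a log2 fold change of 0.35 (adjusted p = 0.0245 by limma-trend), and Gm9958, on the far side of Cxcl5, one of -0.38 (adjusted p = 0.455 by limma-trend). Rassf6, Epgn and Gm19619, also in this interval, were under the filter.

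**Figure D2:**
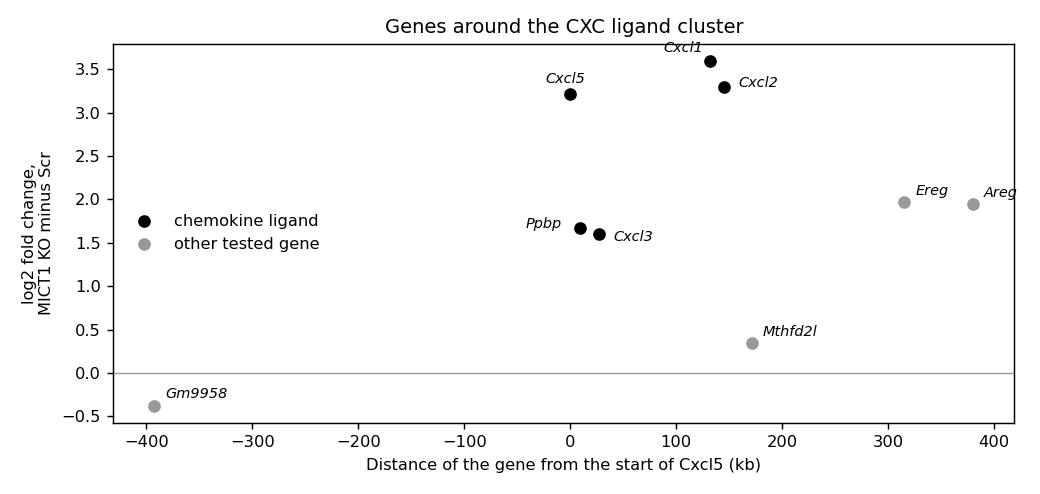
Log2 fold change (MICT1 KO minus Scr) of the tested genes within 400 kb of the CXC ligand cluster, against the distance of each gene from the start of Cxcl5 in kb, with chemokine ligands in black and other genes in gray. The 5 ligands lie between 1.61 and 3.60, and Ereg and Areg near 1.97 and 1.95, with Mthfd2l near 0.35 between them and the ligands.

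Cxcl10, which attracts T cells through Cxcr3 and is known as a target of interferons, had the largest fold change of the ligands and ranked 7 among all genes tested. Its values were 94.0, 76.0 and 76.3 in Scr libraries against 1806, 1658 and 1869.9 in MICT1 KO libraries. The groups were far apart, and the log2 fold change was 4.43 (SE 0.11, 95% interval 4.19 to 4.66, adjusted p = 9.11e-18 by limma-trend), or 21.5-fold. The gene lies 1587 kb from Cxcl5 on the same chromosome, between Cxcl9 and Cxcl11, neither of which was analysed here.

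Promoter sequences of RefSeq (GRCm38.p6) were at hand for 13 of the 19 chemokine ligands in the table, but not for Ccl2, Ccl5, Ccl7, Cxcl5, Cxcl16 and Ccl11. The 250 bases before each start were searched on both strands. The kappa-B consensus, the letters that NF-kB proteins bind, was in the windows of 5 of the 13 (Cxcl1, Cxcl2, Cxcl3, Cxcl10 and Ccl9), and in 7.25% of the 32851 windows of all genes. Here and below a ligand counts if any of its windows matched, and Ccl27a and Ccl25 had several, while the share over all genes is per window. The windows of the 4 CXC ligands with a match are shown so that their matches can be compared. Ppbp and Cxcl12, CXC ligands that were also higher in MICT1 KO cells, held no kappa-B match in their windows. Each is read 5′ to 3′ on the gene's strand up to the base before the start, with matches to the kappa-B consensus and, in Cxcl10 only, to GAAANNGAA of the interferon-stimulated response element in capitals. They cover chr5:90891135-90891244 (Cxcl1, plus strand), chr5:90903789-90903898 (Cxcl2, plus strand), chr5:90785991-90786100 (Cxcl3, plus strand) and chr5:92348890-92349109 (Cxcl10, minus strand).
Cxcl1: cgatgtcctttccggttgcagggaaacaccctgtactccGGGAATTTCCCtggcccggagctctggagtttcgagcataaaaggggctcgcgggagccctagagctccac
Cxcl2: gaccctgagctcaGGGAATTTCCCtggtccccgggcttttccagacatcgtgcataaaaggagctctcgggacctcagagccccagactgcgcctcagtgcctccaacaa
Cxcl3: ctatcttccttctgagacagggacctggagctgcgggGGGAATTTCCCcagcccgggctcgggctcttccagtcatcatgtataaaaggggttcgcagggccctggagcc
Cxcl10: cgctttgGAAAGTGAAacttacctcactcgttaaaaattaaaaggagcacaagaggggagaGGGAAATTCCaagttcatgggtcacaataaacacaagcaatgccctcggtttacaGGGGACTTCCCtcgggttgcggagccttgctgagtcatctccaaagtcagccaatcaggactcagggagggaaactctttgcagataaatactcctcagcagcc

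Cxcl1, Cxcl2 and Cxcl3 held the same run in capitals, which reads as overlapping matches on both strands and begins 71, 97 and 73 bases before the start. Cxcl10 held its matches at other letters, farthest upstream at 159 bases before the start, and its GAAANNGAA match at 213 bases. GAAANNGAA was in 7.13% of all windows and in none of the other 12 ligands. The cAMP response element TGACGTCA was in none of the 13 and in 1.55% of all windows, the C/EBP letters TTGCNNAA in 1 (Ccl27a) and in 9.56%, and the AP-1 letters TGANTCA in 4 (Cxcl10, Ppbp, Ccl9 and Ccl27a) and in 6.75%. A match describes letters in a window and was not tested for binding, and Ccl9, which held a kappa-B match, was lower in MICT1 KO cells.

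The CC ligands Ccl2 and Ccl7, which attract monocytes through Ccr2, lie 10.1 kb apart on chromosome 11 (chr11:82035577-82037452 and chr11:82045712-82047525). Ccl2 had values of 652.8, 470.0 and 370.4 in Scr libraries against 5060.4, 4943 and 5379 in MICT1 KO libraries, which gave a log2 fold change of 3.40 (SE 0.12, adjusted p = 2.08e-15 by limma-trend). Ccl7 had values of 699, 572 and 482 in Scr libraries against 4037, 3656 and 3856 in MICT1 KO libraries, which gave a log2 fold change of 2.73 (SE 0.094, adjusted p = 9.89e-16 by limma-trend). Both genes were highest in Scr library 1 and lowest in Scr library 3 among the controls, and neither overlapped between the groups. Leaving out any 1 library moved the log2 fold change of Ccl2 to between 3.21 and 3.62. Ccl11, an eosinophil attractant next to Ccl7, was under the filter, at 0.927 to 4.95 in the Scr libraries and 2.11 to 5.72 in the MICT1 KO libraries.

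Ccl5, which attracts T cells and monocytes, was at 73.2, 61.2 and 67.2 in Scr libraries against 245, 204 and 279.9 in MICT1 KO libraries. The groups did not overlap, and the log2 fold change was 1.83 (SE 0.18, adjusted p = 2.32e-08 by limma-trend). Ccl9, a ligand of Ccr1 that lies 47.1 kb from Ccl5 on chromosome 11, went the opposite way. It was at 105, 39.9 and 64.1 in Scr libraries against 35.3, 10.5 and 10.4 in MICT1 KO libraries, which gave a log2 fold change of -1.96 (SE 0.44, adjusted p = 0.000674 by limma-trend). The highest MICT1 KO library of Ccl9 lay just under the lowest Scr library.

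Cxcl12, which binds Cxcr4 and is taken up by the scavenging receptor Ackr3, is known for holding stem cells and lymphocytes in their niches more than for inflammation. Its values were 1294, 1102 and 841 in Scr libraries against 2933, 3218 and 3582 in MICT1 KO libraries. The groups did not overlap, and the log2 fold change of 1.61 (SE 0.11, adjusted p = 4.58e-11 by limma-trend) was the smallest of the 7 listed ligands that were called. Among the Scr libraries Cxcl12, like Ccl2 and Ccl7, was highest in library 1 and lowest in library 3.

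Cx3cl1 and Cxcl16 are made as membrane proteins that hold leukocytes and are shed as soluble ligands. Cx3cl1 had values of 1019.8, 1029.9 and 1075 in Scr libraries against 980.1, 919.8 and 913 in MICT1 KO libraries. The MICT1 KO libraries all lay below the Scr libraries, but the log2 fold change was -0.15 (95% interval -0.30 to -0.0024) and did not pass (adjusted p = 0.0773 by limma-trend). Non-overlapping groups with MICT1 KO lower were found in 31.2% of genes tested and with MICT1 KO higher in 30.9%, the latter seen in 7 of the 8 tested members. Cxcl16 did not reach the filter, at 0.989, 11.1 and 3.05 in Scr libraries against 9.37, 9.48 and 5.18 in MICT1 KO libraries. The groups overlapped, and the value of Scr library 1 stood for 1 read.

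Among all 19 chemokine ligands in the table, of 40 searched by name, 16 were tested, 11 were higher, 2 were lower and 3 were not called. The median log2 fold change of the 16 was 1.64, beside -0.01 over all genes tested. This pools the 8 listed ligands, with a median of 2.98, and 8 outside the list, with a median of 0.17. Of those outside the list, 4 were higher, 2 lower and 2 not called. Of all genes tested, 28.5% were called higher and 28.3% lower. Beside Ccl9, the lower ligand was Ccl22, which acts through Ccr4. Ccl22 was at 15.8, 26.0 and 25.4 in Scr libraries against 9.53, 2.11 and 9.33 in MICT1 KO libraries, which gave a log2 fold change of -1.72 (adjusted p = 0.0139 by limma-trend), and the call was lost without Scr library 2, Scr library 3 or MICT1 KO library 2 (adjusted p = 0.0627, 0.0566 and 0.0663 by limma-trend). It is the neighbour of Cx3cl1 on chromosome 8, as is Ccl17, a second ligand of Ccr4, which was under the filter at 0.989 to 10.4 over the 6 libraries. Ccl27a, a skin chemokine that binds Ccr10, had values of 44.5, 85.3 and 51.9 in Scr libraries against 106, 103 and 94.3 in MICT1 KO libraries, which gave a log2 fold change of 0.78 (adjusted p = 0.0102 by limma-trend). This gene has a near copy, Ccl27b, and its estimate in MICT1 KO library 2 held a fraction of a read, so its value is uncertain, and the call was lost without Scr library 1 (adjusted p = 0.0582 by limma-trend). The ligands of mucosal tissues Ccl25 (log2 fold change -0.51, adjusted p = 0.0923 by limma-trend) and Ccl28 (-0.44, adjusted p = 0.458 by limma-trend) did not pass.

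**Figure D3:**
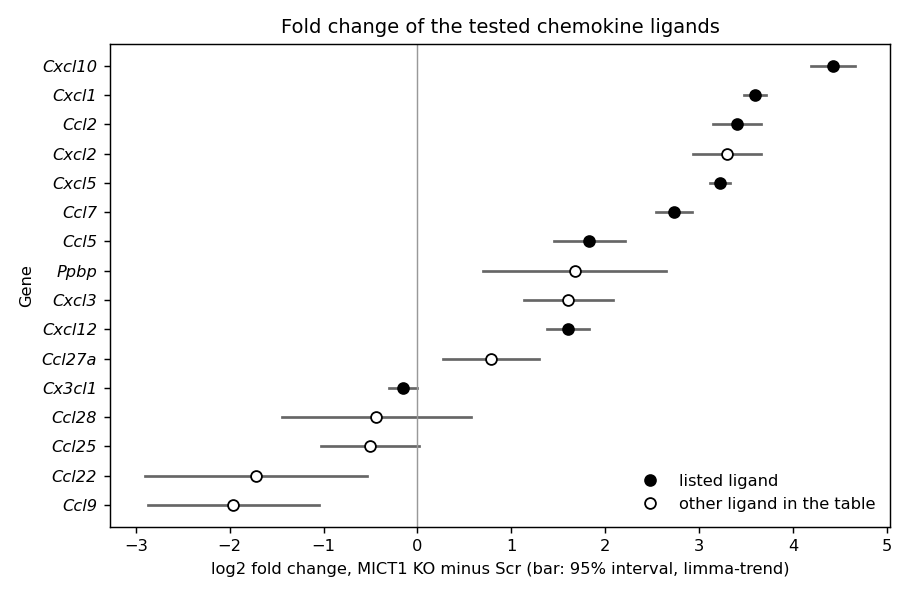
Log2 fold change (MICT1 KO minus Scr) of the 16 tested chemokine ligands with 95% intervals from limma-trend, with filled circles for the listed ligands and open circles for other ligands in the table. Cxcl10 lies highest at 4.43, followed by Cxcl1, Ccl2, Cxcl2 and Cxcl5 between 3.22 and 3.60, and the intervals of Ccl9 and Ccl22 lie below 0.

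Levels were compared between genes per length, as RPKM (CPM per kilobase of exon). In Scr libraries the order of the listed ligands was Cxcl1 (mean 104 ± 5.99 RPKM, SD, n = 3), Cxcl5 (59.5 ± 1.33), Ccl7 (44.6 ± 8.85), Ccl2 (26.8 ± 8.05), Cx3cl1 (16.2 ± 0.462), Cxcl12 (8.07 ± 1.78), Ccl5 (4.28 ± 0.450), Cxcl10 (2.23 ± 0.313) and Cxcl16 (0.101 ± 0.106). No neighbours in that order overlapped, although Ccl7 in Scr library 3 (36.7 RPKM) lay close to Ccl2 in Scr library 1 (35.6 RPKM). In MICT1 KO libraries the order was Cxcl1 (1254 ± 44.6 RPKM, SD, n = 3), Cxcl5 (557 ± 18.0), Ccl7 (294 ± 13.2), Ccl2 (276 ± 12.9), Cxcl10 (48.4 ± 2.95), Cxcl12 (24.3 ± 2.57), Ccl5 (15.5 ± 2.43), Cx3cl1 (14.6 ± 0.482) and Cxcl16 (0.162 ± 0.0492). Here Ccl7 and Ccl2 overlapped between libraries, as did Ccl5 and Cx3cl1. Cxcl10 moved from below Cx3cl1, Cxcl12 and Ccl5 to above all 3.

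The summed RPKM of the 19 ligands was 274 ± 20.9 in Scr and 2509.5 ± 52.1 in MICT1 KO libraries (SD, n = 3), a ratio of 9.17. The 5 Cxcr2 ligands made up 61.0% ± 4.12 of this sum in Scr and 73.0% ± 0.605 in MICT1 KO libraries, and their own sum was 11.0-fold higher. Cxcl1 alone went from 37.9% ± 2.62 to 50.0% ± 1.10, while Cxcl5 held 21.8% ± 1.34 and 22.2% ± 1.07. Ccl2 and Ccl7 together took 25.9% ± 4.28 and 22.7% ± 0.389. The share of Cx3cl1 was 5.95% ± 0.612 in Scr and 0.583% ± 0.0175 in MICT1 KO libraries, and that of Cxcl12 was 2.93% ± 0.431 and 0.969% ± 0.103, although the Cxcl12 value itself was higher in MICT1 KO cells. These shares are given as descriptions and were not tested.

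**Figure D4:**
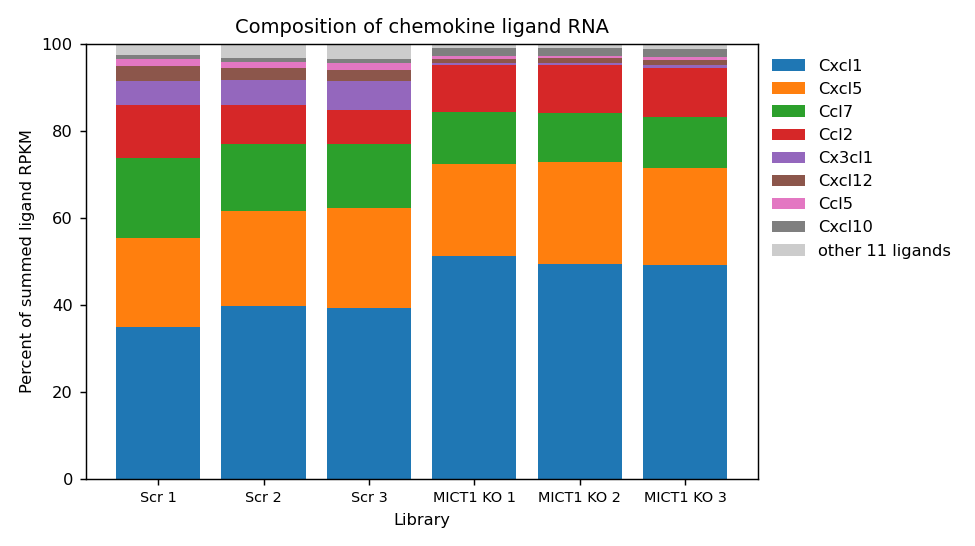
Share (percent) of the summed RPKM of 19 chemokine ligands taken by each of 8 ligands and by the other 11 together, in each of the 6 libraries. Cxcl1 and Cxcl5 fill most of each bar, and the share of Cx3cl1 is 5.95% in the Scr and 0.583% in the MICT1 KO libraries on average.

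Chemokine receptors were mostly not analysed here, with 6 of 27 in the table and 3 tested. Among those not analysed were Ccr2, Ccr6, Cxcr2, Cxcr3, Cxcr4, Cxcr6 and Cx3cr1, signaling partners of listed ligands. Ackr3, which clears Cxcl12 without G protein signaling, was at 3299, 3998 and 3497 in Scr libraries against 8341, 7777 and 7559.8 in MICT1 KO libraries, which gave a log2 fold change of 1.14 (adjusted p = 3.90e-12 by limma-trend). Ccrl2, an atypical receptor, rose from 5.93, 13.0 and 2.04 to 30.5, 30.6 and 14.5, a log2 fold change of 1.90 (adjusted p = 0.00890 by limma-trend). Ackr3 was thus a well expressed partner of a listed ligand, and Ccrl2 a gene of few reads. Ccr1 did not pass (adjusted p = 0.241 by limma-trend), and no receptor was lower, also at an unadjusted p under 0.05 (0 by limma-trend).

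Of the 13 tested proteases that cut chemokines and their regulators, 8 were higher and 3 lower, with a median log2 fold change of 0.66. Over all genes tested, 28.5% were called higher and 28.3% lower. Adam10, a sheddase of Cx3cl1 and Cxcl16, did not pass (log2 fold change 0.08, adjusted p = 0.305 by limma-trend). Adam17, the other sheddase, was at 1888, 1888 and 2012 in Scr libraries against 1491, 1657 and 1529 in MICT1 KO libraries, which gave a log2 fold change of -0.31 (adjusted p = 0.000359 by limma-trend). The largest rises were in Mmp3, a matrix protease (2.15, adjusted p = 2.44e-11 by limma-trend), and in Timp1, an inhibitor of such proteases (1.38, adjusted p = 2.78e-13 by limma-trend). Mmp9 had the largest fall (-1.41, adjusted p = 0.0468 by limma-trend), with groups that overlapped, and did not pass without Scr library 2 (-1.05), Scr library 3 (-1.17) or MICT1 KO library 3 (-0.81).

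Of the 18 tested cytokines that induce chemokines and their receptors and adaptors, 10 were higher and 3 lower, with a median of 0.33. The shares over all genes tested were 28.5% higher and 28.3% lower. Il6, the interleukin, was at 246, 258 and 164 in Scr libraries against 7635, 7302 and 6398 in MICT1 KO libraries, which gave a log2 fold change of 5.02 (adjusted p = 2.06e-18 by limma-trend). Lif, a cytokine of the same family, was at 1471, 1671 and 1684 in Scr libraries against 10281, 11121 and 9892 in MICT1 KO libraries, which gave a log2 fold change of 2.70 (adjusted p = 1.96e-18 by limma-trend). Both were far apart between the groups, and Il6 exceeded each chemokine ligand in fold change. The largest falls were in receptors, Il17rc (-1.22, adjusted p = 3.14e-10 by limma-trend) and Tnfrsf1a, the main receptor of tumor necrosis factor (-0.65, adjusted p = 8.36e-09 by limma-trend).

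Of the 14 tested NF-kB subunits, inhibitors and kinases, 9 were higher with a median of 0.40, and 0 were lower by limma-trend, also at an unadjusted p under 0.05. Each count in this paragraph stands beside 28.5% of all genes tested called higher and 28.3% called lower. Relb, a subunit, was at 410.5, 409 and 398 in Scr libraries against 1217, 1102 and 1108 in MICT1 KO libraries, which gave a log2 fold change of 1.49 (adjusted p = 2.30e-12 by limma-trend). Nfkbie, an inhibitor that holds NF-kB in the cytoplasm, had a log2 fold change of 1.46 (adjusted p = 2.08e-05 by limma-trend). Of the 21 tested genes of interferon sensing and response, 11 were higher and 5 lower, with a median of 0.26. Usp18, which damps interferon signaling, rose by 2.87 (adjusted p = 4.94e-09 by limma-trend) and Irf5, a transcription factor, by 2.14 (adjusted p = 3.43e-09 by limma-trend) on the log2 scale. Mavs, an adaptor of RNA sensing, was lower by contrast (-0.43, adjusted p = 0.00117 by limma-trend). Of the 13 tested regulators of AU-rich mRNA decay, which act on many cytokine mRNAs, 5 were higher and 3 lower, with a median of 0.06. These counts set the list little apart from all genes tested. Zfp36l1 (0.66) and Tia1 (0.59) had the largest rises and Auh (-0.95) and Tial1 (-0.22) the largest falls.

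**Figure D5:**
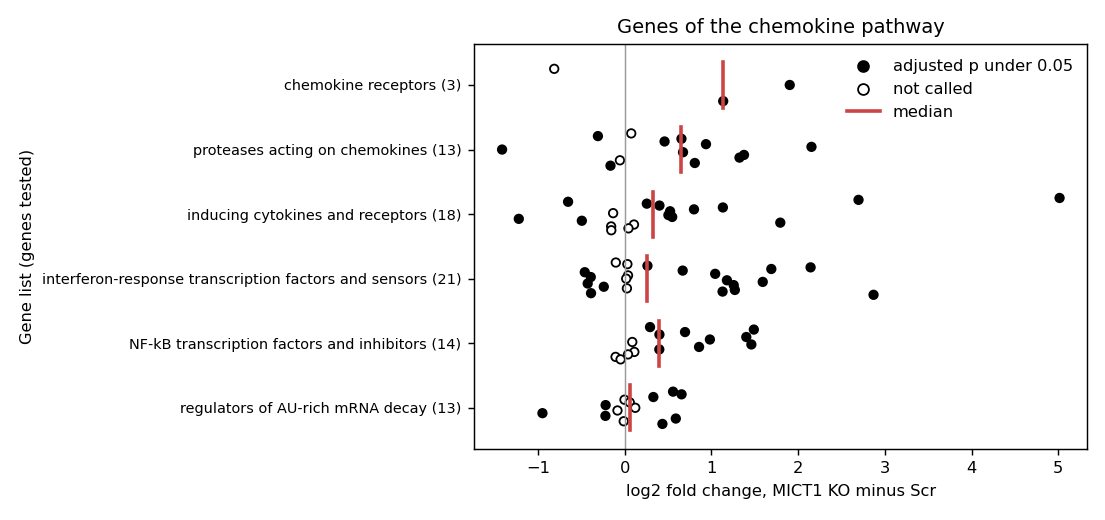
Log2 fold change (MICT1 KO minus Scr) of each tested gene of 6 lists around the chemokine ligands, with filled circles for an adjusted p under 0.05 (limma-trend), open circles for genes not called and a red line for the list's median. The medians of the lists other than receptors lie between 0.06 and 0.66, and Il6 lies farthest to the right at 5.02.

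Some markers of cell types also differed between the groups. All 8 brown adipocyte markers were lower in MICT1 KO cells, with a median log2 fold change of -3.51. Among all genes tested, 28.3% were called lower and 28.5% higher. Of 6 tested markers of adipocyte progenitors and fibroblasts, 3 were higher and 2 lower, and the 7 in the table summed to 2227 to 2593 CPM in Scr and 3061 to 3255 CPM in MICT1 KO libraries. Col1a1, a collagen, carried this difference, since the other 6 summed to 1172 to 1455 CPM in Scr and 1210.3 to 1338 CPM in MICT1 KO libraries. Ly6a (log2 fold change 1.39, adjusted p = 2.78e-10 by limma-trend) and Pdgfrb (0.48, adjusted p = 4.46e-05 by limma-trend) were also higher. Dlk1, a preadipocyte marker, was lower (log2 fold change -3.47, adjusted p = 1.52e-12 by limma-trend), as was Pdgfra (-0.19, adjusted p = 0.0347 by limma-trend). Col3a1 did not pass. Of 12 macrophage and monocyte markers 4 were in the table, summing to 16.6 to 23.1 CPM in Scr and 31.8 to 39.2 CPM in MICT1 KO libraries. Of these Cd14 was higher (log2 fold change 1.24, adjusted p = 2.44e-06 by limma-trend), Cd68, Csf1r and Mrc1 did not pass, and the defining genes Adgre1, Itgam and Ptprc were not analysed here. None of 8 lymphocyte markers was in the table, of 6 neutrophil and mast cell markers only S100a8, at 0.128 to 1.29 CPM over the 6 libraries, and of 6 endothelial markers only Cdh5, at 0.368 to 0.725 CPM in Scr and 1.59 to 2.03 CPM in MICT1 KO libraries. The part of these cell type differences in the chemokine result was not tested.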

How the data were processed

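Per the methods, RNA was prepared with an RNeasy kit and the alignment to mm10 was done in Partek. The labels and the methods describe library preparation differently, and the submitters' processing notes name Partek, STAR and DESeq2. The authors deposited a normalized signal per gene. From its low values each library's signal appeared to be estimated reads over a size factor (0.949 to 1.08). Of values under 20, 88.7% to 90.2% came out as whole reads within 0.01, too few to recover counts, so no count test was run.

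Values were tested as log2(value + 1) with limma-trend (limma 3.58.1, R 4.3.3) without covariates, over the 12507 genes that reached 10 in 3 or more libraries, with Benjamini-Hochberg adjustment over all of them and a threshold of 0.05. The scripts were tested on simulated data. RPKM used exon lengths of GENCODE release M21 (98.9% of genes). Depth was 15445900 to 17925600 estimated reads per library.

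The members and lists were chosen with earlier results of these data known. Named were the listed ligands, other ligands in the table, and from each list the 2 largest called rises and falls and the partners of listed ligands. Some single genes that this rule names are not reported here. Alternatives were other pseudocounts, filters, scaling, robust eBayes, a replicate block, each library left out, and the longest transcript as length.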

Additional observations from a re-analysis of the deposited data

How the results depend on the processing

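The counts of 7 listed ligands higher and 0 lower were found under each alternative tried, and in 198 of the 202 alternative fits of single ligands both the direction and the side of the threshold stayed. The 4 exceptions are the calls of Ccl22 and Ccl27a given with those genes. Robust eBayes gave adjusted p = 0.00023 for Ccl2 and 0.00125 for Cxcl12 by limma-trend, in place of 2.08e-15 and 4.58e-11. That of Ccl7 was also larger (9.11e-10 by limma-trend), and those of Ccl5, Cxcl1, Cxcl5 and Cxcl10 were smaller. The size of these p-values thus depends on how variances are shared between genes. With a filter at a maximum of 4 RPKM, which tests fewer genes, 9 ligands were higher in place of 11 and 0 were lower in place of 2. Ccl27a, Ppbp, Ccl9 and Ccl22 did not reach that filter and were not tested under it. Under the same filter 1 receptor was higher in place of 2, and 6 interferon genes in place of 11. Without 1 library, 1 to 2 ligands were lower. Mmp9 did not pass with library-size scaling (adjusted p = 0.0517 by limma-trend). Bcl3 (log2 fold change -0.05, not called) ranged from -0.079 to 0.014 without 1 library, the latter without Scr library 1. With the longest transcript as length, the share of Cxcl12 was 4.06% in Scr and 1.39% in MICT1 KO libraries, and that of Cx3cl1 6.72% and 0.680%.

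Scr and MICT1 KO libraries with the same number did not deviate together (correlations of -0.02, -0.02 and 0.06 across genes), so the numbers were not taken as pairs. With the replicate number as a block, 3543 genes were higher and 3512 lower, in place of 3569 and 3544, and 7 listed ligands were higher. The block changed no call of a ligand. Cxcl16, Ccl11 and Ccl17, left out by the filter on low values, did not pass when it was lifted (log2 fold changes of 0.93, 0.43 and 0.51, adjusted p = 0.270, 0.658 and 0.599 by limma-trend), and few reads stood behind them.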

Other observations

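The 3′UTRs of the ligands were searched for ATTTA, the pentamer of AU-rich elements, in the GENCODE M21 transcript with the longest coding sequence. Cxcl2 held 11, Cxcl1 7, and Cxcl3 and Cxcl5 5 each, where the median over the 11695 tested genes with a 3′UTR was 1. At least as many as in Cxcl2 were found in 4.44% of these genes, and at least as many as in Cxcl1 in 12.0%. For the count of Cxcl3 and Cxcl5 this share was 20.3%. Among the other listed ligands Cxcl12 held 4 in a 3′UTR of 5188 bases, and Ccl7, Cxcl10 and Cxcl16 2 each. Ccl2 and Cx3cl1 held 1 each and Ccl5 none, so that ligands with few pentamers were also among those at least 2-fold higher. Ppbp, the other Cxcr2 ligand, held 1. Of the ligands outside the list that were not higher, Ccl9, which was lower, and Ccl28, which was not called, held 5 each, as did Ccl11, which was under the filter. The windows of 30 bases with the most pentamers (in capitals) in Cxcl1 and Cxcl2 are shown because they hold the most copies of all 19 ligands. The copies number 4 and 5, in separate runs within which they overlap.
Cxcl1: gagggtcctATTTATTTAtgtATTTATTTA
Cxcl2: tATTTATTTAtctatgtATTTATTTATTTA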
